A study of Caenorhabditis elegans with 4 samples.

Results

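The GLD and Nanos proteins of Caenorhabditis elegans are RNA regulators of the germ line, and the transcripts of 10 genes around them were followed here: gld-1, gld-2, gld-3, gls-1, rnp-8, nos-1, nos-2, nos-3, daz-1 and larp-1. A gene was counted as measured where a spot of the array carried its symbol and no other, and spots of 1 gene were averaged on each array. This left 8 of the 10 genes, out of 14958 named genes on the array. No spot carried gls-1, whose product binds GLD-3, under its symbol. The spot annotated with daz-1, the worm member of the DAZ family needed for oogenesis, was annotated with a neighbouring gene as well, so no value is given for it. For gld-1, a spot that listed a further gene was left out in the same way.

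On each of 4 arrays, mRNA from 1 prep of glp-4 adults (preps 1 to 4) was set against total RNA labelled as a wild-type mixed reference, which all 4 arrays shared. Both sides of each ratio thus differ in the kind of RNA as well as in genotype. The part of mRNA against total RNA in the ratios was not tested. The labels do not say what the reference was mixed from, which allele of glp-4 was used, and the temperature, age and sex of the adults. In known temperature-sensitive mutants of glp-4, a valyl-tRNA synthetase gene, animals raised at the restrictive temperature reach adulthood with very few germ cells. Nothing states that the preps came from separate cultures, so the p-values reflect variation between preps that could be technical only.

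Germ cells control much of their gene expression after transcription, through proteins that bind mRNA and set the length of its poly(A) tail or block its translation. GLD-1, a repressor with a KH-type RNA-binding domain of the STAR family, carries germ cells into meiosis and keeps oocyte mRNAs silent until late oogenesis. GLD-2 is the catalytic subunit of a cytoplasmic poly(A) polymerase and relies on partner proteins, GLD-3 and RNP-8, to find its mRNAs. Nanos proteins are zinc-finger partners of Pumilio-family (PUF) repressors.

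The lowest of these genes were nos-2 and gld-1, and 6 of the 8 measured genes had lower ratios in glp-4 adults: nos-2, gld-1, rnp-8, gld-3, nos-1 and nos-3, in that order. Their mean ratios lay between 9.91-fold lower (nos-2) and 2.04-fold lower (nos-3), and none of the 8 was higher. The catalytic subunit gene gld-2 and larp-1 did not pass the threshold. A call needed a Benjamini-Hochberg adjusted p under 0.05 in limma, which tested the mean log2 ratio of the 4 arrays against 0 over all 19981 features. Of all features 37.9% passed in either direction and 20.9% were lower. Lower and at least 2-fold apart were 10.8% of features and all 6 of the genes called, and at least 4-fold lower were 2.44% of features and 3 of the genes, nos-2, gld-1 and rnp-8. The median log2 ratio of the 8 genes was -1.79, beside 0.0037 over all features. The sign was read as glp-4 adults over reference, a likely but not a stated direction that rests on the array descriptions and the order of the channels. No dye is named, and in the opposite direction each sign would turn.

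Ratios on arrays whose medians lie near 0 show a share among transcripts. In RNA of whole worms fewer cells of a type cannot be told apart from less RNA per cell. A difference in stage or sex from the reference, whose make-up is not stated, cannot be told apart from either. Markers of germ cells were lower for 8 of 8 genes, with medians on single arrays between -3.10 and -1.76 in log2 ratio, and those of oocytes for 6 of 6 genes, between -4.57 and -4.06. Of 7 sperm markers 5 were lower: ssp-9 (mean log2 ratio -1.08) and the major sperm protein genes msp-33, msp-36, msp-77 and msp-113. Spots of this near-identical family are not independent of each other. The sperm markers ssp-10 (-0.08) and spe-9 (0.03) did not pass the threshold. Of 4 measured somatic gonad markers 0 were lower and 1, the innexin gene inx-8, was higher. All 6 intestinal and 5 of 6 body muscle markers were higher, 4 of 6 neuron markers were lower, and of 6 epidermal markers 3 were lower and 2 higher. Median log2 ratios of whole arrays lay between -0.07 and 0.08, their SDs between 0.871 (prep 1) and 1.21 (prep 2), and pairs of arrays correlated across spots at 0.719 to 0.788.

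**Figure D1:**
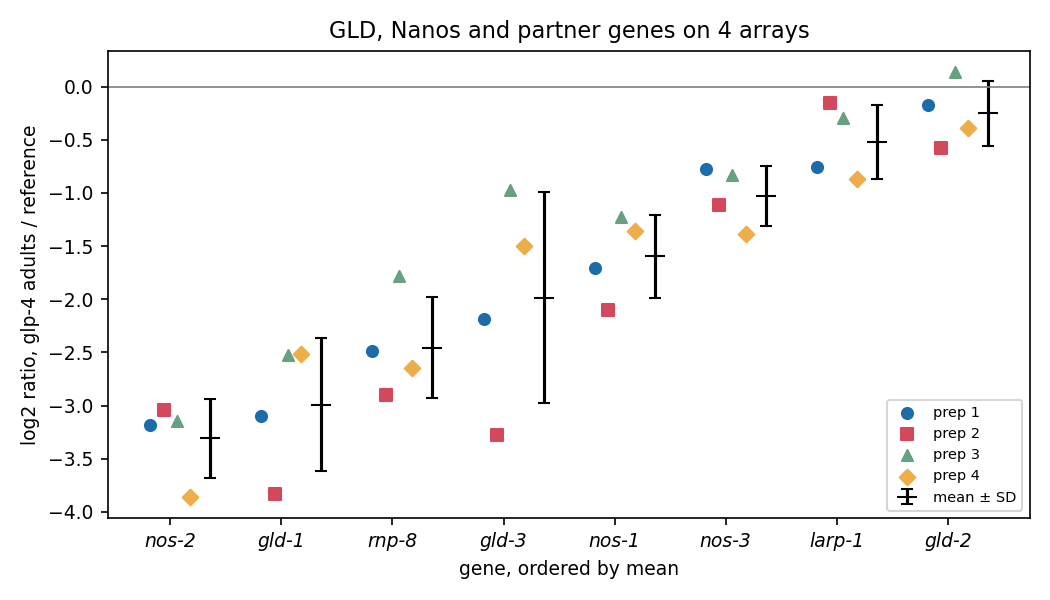
Log2 ratio of glp-4 adults over reference (y axis) for the 8 measured genes (x axis, ordered by mean), with 1 point per prep and the mean ± SD over 4 preps to the right of the points. All points but that of gld-2 on prep 3 lie below 0, and gld-3 has the widest spread.

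All 3 Nanos genes were lower, with nos-2 furthest from 0. NOS-2, made from maternal mRNA, acts with NOS-1 in the development of primordial germ cells, and nos-2 (ZK1127.1) had log2 ratios of -3.18, -3.05, -3.15 and -3.86 on preps 1 to 4. It was 9.91-fold lower (-3.31 ± 0.37, SD, n = 4 preps, adjusted p = 8.74e-05 in limma). Prep 4 stood lowest and the other 3 preps lay close together. Only 0.425% of all features had a lower mean. For nos-1 (R03D7.7) the log2 ratios were -1.71, -2.10, -1.22 and -1.35, a mean of -1.60 ± 0.39 (3.03-fold lower, adjusted p = 0.00101). NOS-3 binds the PUF protein FBF in the switch from sperm to oocytes, and nos-3 (Y53C12B.3) had log2 ratios of -0.78, -1.11, -0.83 and -1.39. Its mean was -1.03 ± 0.28 (2.04-fold lower, adjusted p = 0.00339).

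The log2 ratio of nos-2 was below that of nos-1 on 4 of 4 arrays, by 1.71 ± 0.66 in the mean, and below that of nos-3 on 4 of 4, by 2.28 ± 0.24. The values of nos-2 and nos-3 did not overlap, nor did those of nos-2 and nos-1. Between nos-1 and nos-3 the order turned on prep 4, with a mean difference of -0.57 ± 0.48. The 2 spots of nos-3 were below 0 on all arrays, with means of -0.87 ± 0.32 and -1.19 ± 0.29 in log2 ratio. With 4 arrays, the exact permutation test of signs (two-sided) has 0.125 as its smallest p, and both differences of nos-2 stood at that value. After adjustment over the 16 differences examined, p was 0.222 for both. These pairs were not planned, and nos-2 was the lowest gene by the same values.

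In the GLD group, the repressor gene gld-1 (T23G11.3) had log2 ratios of -3.10, -3.84, -2.52 and -2.51 on preps 1 to 4. Its mean was -2.99 ± 0.63 (7.96-fold lower, n = 4 preps, adjusted p = 0.000268 in limma), below that of all but 0.706% of features. Preps 3 and 4 gave nearly the same value and prep 2 the lowest. The genes of both GLD-2 partners were lower as well. RNP-8 carries an RNA recognition motif, and rnp-8 (R119.7) had log2 ratios of -2.49, -2.90, -1.79 and -2.64, with a mean of -2.45 ± 0.48 (5.48-fold lower, adjusted p = 0.000300). GLD-3 is a KH protein of the Bicaudal-C family, and gld-3 (T07F8.3) had log2 ratios of -2.18, -3.28, -0.97 and -1.50. Its mean was -1.98 ± 1.00 (3.96-fold lower, adjusted p = 0.00499).

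The spread of gld-3 was wide: 95.5% of all features had a smaller SD, and its percentile among all features ran from 1.09 on prep 2 to 9.22 on prep 3. Scaling the arrays to 1 SD moved its 4 log2 ratios to -2.64, -2.70, -1.02 and -1.40, an SD of 0.86. The array prep 2 had the widest distribution of all spots, and it was the lowest array for 5 of the 8 genes. Germ cell markers were also lowest on prep 2 (median log2 ratio -3.10) and highest on prep 3 (-1.76), as was the median of the 8 genes (-2.50 on prep 2 and -1.10 on prep 3). The part of either in the spread of gld-3 was not tested.

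The catalytic subunit gene gld-2 (ZC308.1) had log2 ratios of -0.17, -0.57, 0.14 and -0.39 on preps 1 to 4. These values lie on both sides of 0. The mean was -0.25 ± 0.31 with a 95% confidence interval of -0.65 to 0.15 in limma (adjusted p = 0.280). This interval leaves room for a ratio as low as -0.65, but not for the mean of gld-1, gld-3 or rnp-8. It covers only the variation of 1 spot between arrays, and whether that spot was dim is unknown. On each array the log2 ratio of rnp-8 was below that of gld-2, by 2.32, 2.33, 1.92 and 2.25 (2.20 ± 0.19 in the mean). For gld-3 the gap to gld-2 was 1.73 ± 0.77, and for gld-1 it was 2.74 ± 0.48, each in the same direction on 4 of 4 arrays. The exact permutation p was 0.125 for each of these 3 differences, the smallest possible, and 0.222 after adjustment. These 3 pairs were chosen after their values were seen.

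GLD-4 is the other cytoplasmic poly(A) polymerase of this germ line. Its gene gld-4 (ZK858.1) had log2 ratios of -1.02, -0.97, -0.86 and -1.18, a mean of -1.01 ± 0.13 (2.01-fold lower, adjusted p = 0.00213 in limma). The ratio of gld-2 was above that of gld-4 on 4 of 4 arrays, with a mean difference of 0.76 ± 0.25 in log2 ratio. The exact permutation p of this difference was 0.125, the smallest possible with 4 arrays, and 0.222 after adjustment. The values of both genes did not overlap.

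LARP-1 is a La-related protein found with mRNA decay factors in germ cells. For larp-1 (R144.7) the log2 ratios were -0.76, -0.15, -0.29 and -0.87 on preps 1 to 4, all below 0, as for 27.6% of all features. Preps 1 and 4 were the lower pair and preps 2 and 3 the higher. The mean was -0.52 ± 0.35 with a 95% confidence interval of -0.94 to -0.09 before adjustment, and the adjusted p of 0.0588 in limma missed the threshold. Its percentile among all features moved between 15.4 on prep 1 and 45.3 on prep 2.

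Over the ordered list, neighbouring genes mostly did not separate beyond their spread. From nos-2 over gld-1, rnp-8, gld-3, nos-1, nos-3 and larp-1 to gld-2 there were 7 neighbouring pairs. The order held on 4 of 4 arrays for nos-3 below larp-1 alone, and on 3 of 4 for each of the other pairs. The exact permutation p of the 7 pairs lay between 0.125 and 0.625. Without prep 4 the mean of gld-1 (-3.15) was below that of nos-2 (-3.13). Genes at the ends of the list were apart on all arrays: every value of nos-2, gld-1 and rnp-8 lay below every value of nos-3, larp-1 and gld-2. The order, and so the choice of both ends, was taken from the means of these same values.

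Relatives of the proteins, in the loose sense of a shared type of RNA-binding domain or enzyme, were lower for 3 of 10 genes and higher for 0. Of all features, 20.9% were lower and 17.0% higher. The other 7 relatives missed the threshold, and the median log2 ratio of the list was -0.36. Whether the share of lower relatives differs from that of the GLD and Nanos genes was not tested. The splicing regulator gene asd-2, which encodes a STAR protein like GLD-1, had a mean of -0.09 ± 0.12, and gld-1 was below it on 4 of 4 arrays by 2.90 ± 0.64. The Bicaudal-C relative bcc-1 had log2 ratios of 0.64, -0.64, -0.07 and -1.04, a mean of -0.28 ± 0.73. The ratio of gld-3 was below that of bcc-1 on 4 of 4 arrays, by 2.82 on prep 1 but by 0.45 on prep 4. For gld-1 and gld-3 against these relatives the exact permutation p was 0.125, the smallest possible, and 0.222 after adjustment. The La-related gene larp-5 had a mean of 0.03 ± 0.21, and its sign turned without prep 1 (-0.02) or prep 3 (-0.03). The ratio of larp-1 was below that of larp-5 on 3 of 4 arrays and above it by 0.10 on prep 2, with a mean difference of -0.55 ± 0.47 and an exact permutation p of 0.25. The lowest relatives were asd-1 (-1.27 ± 0.30), a splicing regulator with an RNA recognition motif, and gld-4, and the highest was sfa-1 (0.15 ± 0.30), the branch point binding factor.

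**Figure D2:**
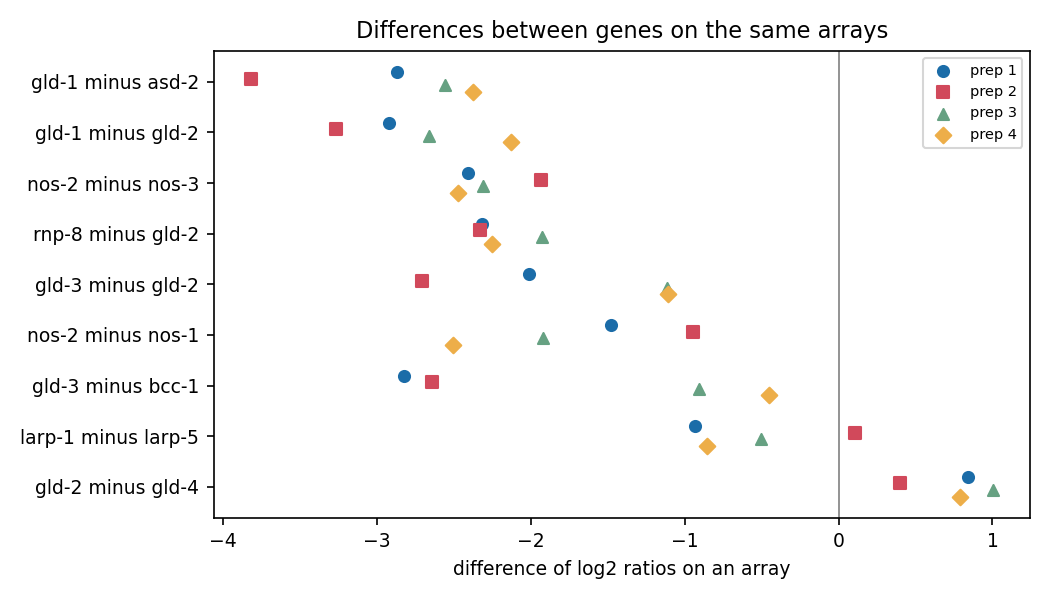
Difference of log2 ratios between 2 genes on the same array (x axis) for 9 pairs (y axis), with 1 point per prep. All 4 points lie below 0 for gld-1, rnp-8 and gld-3 minus gld-2 and for nos-2 minus nos-1 and nos-3, and above 0 for gld-2 minus gld-4, while those of larp-1 minus larp-5 lie on both sides of 0.

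Partners and regulators in germline stem cells were lower for 10 of 13 measured genes and higher for 0, beside 20.9% and 17.0% of features. The other 3 missed the threshold, and the median log2 ratio was -1.43. The gene fog-2, whose F-box protein acts with GLD-1 on tra-2 mRNA, was lowest (-2.61 ± 0.60, 6.10-fold lower, adjusted p = 0.000401 in limma). The PUF gene puf-8 followed with -2.56 ± 1.05, and its value on prep 2, -4.08, was far below those of the other preps (-2.39 to -1.86). FBF-1 and FBF-2 repress gld-1 mRNA in stem cells, and fbf-2 had log2 ratios of -0.67, -2.15, -1.49 and -1.40 (mean -1.43 ± 0.60, adjusted p = 0.00401). The sequences of fbf-1 and fbf-2 are nearly identical, so the spot may report both. The Notch receptor gene of the stem cell niche, glp-1, had -0.32, -1.68, -1.24 and -1.52 (mean -1.19 ± 0.61, adjusted p = 0.00844). Prep 1 was the highest array for both genes, whereas among the measured GLD, Nanos and partner genes only nos-3 was highest there. The highest gene of this list was atx-2, an ataxin-2 relative (0.19 ± 0.11, adjusted p = 0.321).

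Of 12 measured mRNAs known as GLD-1 targets, all 12 were lower, beside 20.9% of all features. Their median log2 ratio was -3.06, and gld-1 itself had -2.99. GLD-1 binds these mRNAs and represses them, which protects some from decay. Whether the lower ratio of gld-1 has a part in those of these targets was not tested, and fewer germ cells cannot be told apart from it. The lowest were oma-2 (-4.60 ± 0.60, 24.2-fold lower), which acts in oocyte maturation, and the PUF gene puf-5 (-4.18 ± 0.31). The highest was mes-3, which encodes a subunit of a germline chromatin repressor complex (-0.63 ± 0.32, adjusted p = 0.0281 in limma). Without prep 1, 2 or 4 its adjusted p rose to 0.0893, 0.0915 and 0.0680. The targets oma-1, oma-2, puf-5 and rme-2 are also among the oocyte markers above, so the 2 groups are not separate. The target glp-1 is also counted among the partners and regulators.

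Enzymes that lengthen or shorten tails were lower for 7 of 11 measured genes and higher for 0, beside 20.9% and 17.0% of features. The other 4 missed the threshold, and the median log2 ratio was -0.64. The gene gld-4 is counted here and among the relatives above. The lowest were pup-2, a poly(U) polymerase gene (-2.08 ± 0.17, 4.23-fold lower, adjusted p = 0.000174 in limma), and parn-1, a deadenylase gene of the PARN family (-1.03 ± 0.33, adjusted p = 0.00414). The highest was cid-1, which encodes another nucleotidyltransferase (-0.07 ± 0.39), with a value of 0.08 without prep 1. Of 5 measured genes for the scaffold of the CCR4-NOT deadenylase and the Tob relative fog-3, 1 was lower and 4 missed the threshold (median -0.14). This count is near the share of all features that were lower, 20.9%. The lower gene was ntl-9 (-0.54 ± 0.07, adjusted p = 0.0227), and without any 1 of the preps 0 genes of this list passed in limma, while 1 had an unadjusted p under 0.05. Next came fog-3, needed for sperm fate (-0.38 ± 0.17, adjusted p = 0.0820), and the highest was ntl-4 (0.00066 ± 0.17), which turned to -0.07 without prep 2 and -0.03 without prep 3.

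Factors of translational repression and mRNA decay split: among 16 measured genes, 9 had lower ratios, 1 had a higher one and 6 missed the threshold (median log2 ratio -0.77). The Y-box genes cey-3 (-4.43 ± 0.38, 3 arrays, adjusted p = 0.000118 in limma) and cey-2 (-2.88 ± 1.07, adjusted p = 0.00143) were lowest. The 2 spots of cey-2 disagreed in size, with mean log2 ratios of -3.83 and -1.93, and on the second alone it would not be among the 2 lowest genes. The single higher gene was ife-2, an isoform of the cap-binding protein eIF4E (0.88 ± 0.40, 1.85-fold higher, adjusted p = 0.0106). These lists were described by counts beside the 20.9% of all features that were lower and the 17.0% that were higher, with no test of a list. At an unadjusted p under 0.05 in limma, ife-2 stayed the single higher gene of the lists and 0 of the 8 GLD, Nanos and partner genes were higher, while 7, larp-1 included, were lower.

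**Figure D3:**
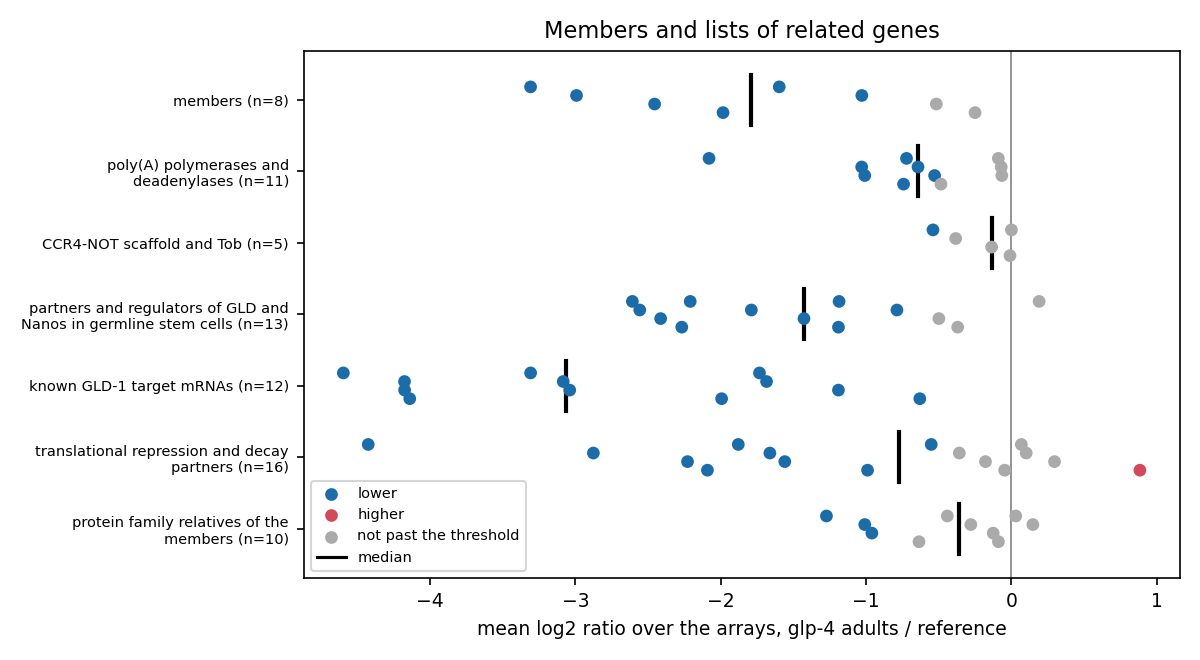
Mean log2 ratio over the arrays (x axis) of each measured gene in 7 groups (y axis, with the number of genes), colored by the limma call, with the median as a vertical line. The 12 known GLD-1 targets reach furthest down, with a median of -3.06, and the CCR4-NOT group lies nearest to 0.

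**Figure D4:**
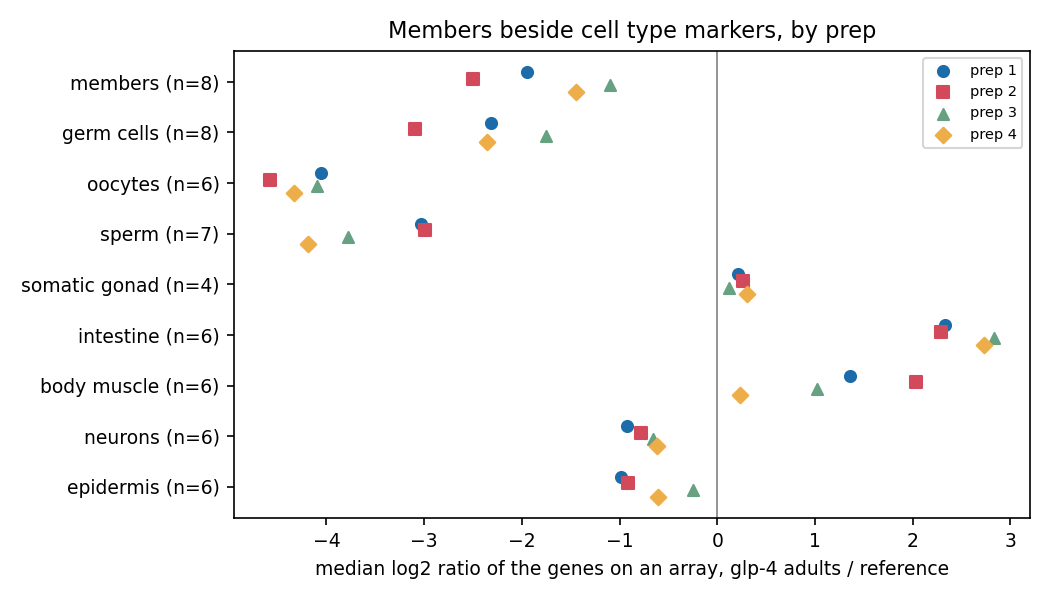
Median log2 ratio on each array (x axis) of the 8 genes and of 8 cell type marker groups (y axis, with the number of genes), with 1 point per prep. The 8 genes lie between -2.50 and -1.10, below 0 on every array like the medians of the germ cell, oocyte, sperm, neuron and epidermis markers. The somatic gonad, intestine and body muscle medians lie above 0. The epidermis genes split, with 3 of 6 lower and 2 higher.

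Of the 16 genes next to the 8 measured ones, in the gene order of the RefSeq annotation WBcel235, 12 were tested: 5 had lower ratios, 1 had a higher one and 6 missed the threshold (median log2 ratio -0.14), beside 20.9% of all features lower and 17.0% higher. No test of this count was made. Beside gld-2, which did not pass, ZC308.4 had a log2 ratio of -3.31 ± 0.63 (adjusted p = 0.000189 in limma), while klu-2 on the other side had 0.21 ± 0.28. Beside nos-2 lay the meiotic recombination gene him-14 (-1.48 ± 0.69, adjusted p = 0.00505) and the lysyl-tRNA synthetase gene kars-1 (-0.13 ± 0.31). The higher neighbour was gst-5, a glutathione transferase gene beside nos-1 (1.70 ± 0.53, adjusted p = 0.00143). The other lower neighbours were T23G11.4 beside gld-1 (-1.03 ± 0.23, 3 arrays), T07F8.4 beside gld-3 (-1.17 ± 0.10) and Y53C12B.1 beside nos-3 (-0.91 ± 0.32).

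Among 14414 named genes with values on all arrays, the 5 whose 4 log2 ratios were closest to those of nos-2 included 4 major sperm protein genes: msp-51, msp-64, msp-76 and msp-65, at root mean square differences of 0.132 to 0.206. The fifth was dut-1, a deoxyuridine triphosphatase gene, at 0.224. The major sperm protein genes are near-identical in sequence, so their spots are not independent. Closest to gld-2 were M02B7.2, max-2, pde-2, mig-38 and gpla-1, at 0.0429 to 0.0877. Likeness over 4 arrays is a description of these preps and of nothing beyond them.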

How the data were processed

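RNA of glp-4 adults (4 preps, 1 group) was hybridised against 1 wild-type mixed reference, per the labels. The deposited values are log2 ratios of both channels for 21632 spots. The scale was read from the values: all those below -2 were the log2 of a whole multiple of 0.001 (tolerance 0.001 of a multiple). How background was corrected, how ratios were normalized and which dyes were used is not given in the sources used here. Precision is limited by the number of arrays. Annotation of the platform gave 1 gene for 16450 spots, with gene numbers matched to RefSeq WBcel235.

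Spots of 1 gene were averaged (20140 features), and features with values on at least 3 arrays were tested with limma 3.58.1 in R 4.3.3 (lmFit, eBayes, Benjamini-Hochberg), tested on simulated data beforehand. Differences between genes used an exact sign permutation. Alternatives changed centring, scale, probe averaging, missing values, variance model and replicates. The reference carries no spread of wild-type samples.

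The genes and lists were chosen with earlier results of these data known. Named genes were all measured members, of each list the 2 lowest and the highest, fixed counterparts, the genes next to each member and the 5 closest profiles to the lowest and highest member. Strand of neighbours was not used. Tables were joined in Python 3.11.15 with pandas 2.3.3, and plots drawn with matplotlib 3.10.9.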

Additional observations from a re-analysis of the deposited data

Results flagged for a closer look

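For nos-2, prep 4 (log2 ratio -3.86) stood apart from the other 3 preps (-3.18, -3.05 and -3.15): its gap to the nearest of them was 0.830 of the whole range, above Dixon's 95% critical value for 4 samples. It was the 1 gene of 50 checked that passed this limit, and chance passes about 1 in 20. Without prep 4 the mean of nos-2 was -3.13, still lower in limma.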

How the results depend on the processing

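The 6 lower genes and both that did not pass kept their direction and their side of the threshold in all alternatives run, among them each prep left out in turn and, chosen after seeing the data, the 2 arrays that share a title date averaged. The largest adjusted p of a lower gene was 0.0223 (gld-3), and that of larp-1 ranged from 0.0543 to 0.201. Over all features, 5156 to 6513 passed when 1 prep was left out, against 7577. The count of the CCR4-NOT list fell from 1 to 0 in each case without 1 prep and with the title date averaged (lowest and highest 0). Signs that turned with a prep left out belonged to small values that did not pass in any of these cases. Over these cases cid-1 ranged from -0.23 to 0.081, ntl-4 from -0.065 to 0.061, larp-5 from -0.031 to 0.13, icpp-55 (beside rnp-8) from -0.0029 to 0.18 and spe-57 (beside nos-1) from -0.051 to 0.46. Without a prep, features with values on at least 2 arrays were tested. The title date as a random block was not run, because limma needs fewer blocks than 3 to estimate it from 4 arrays. No paired analysis was possible because the labels give 1 group. Signal over background is unknown, so the limit that dim spots set was not tested.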
